A study of Mus musculus with 2 samples.

Results

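Serotonergic neurons make the transmitter serotonin and lie in the raphe nuclei of the brainstem, from where their fibres reach most of the brain. They are defined by a small set of genes: the ETS factor gene Fev (also called Pet1) switches on the genes for serotonin synthesis and transport, Tph2 encodes the enzyme that begins serotonin synthesis in the brain, and Slc6a4 encodes the transporter that takes serotonin back up. Htr1a encodes the receptor by which serotonergic neurons restrain their own firing, and Htr5b another serotonin receptor. These 5 genes were examined in DNase-seq data, which map open chromatin by cutting nuclei with DNase I, out of 21938 protein-coding genes. The members were taken by symbol, and their domains were the gene bodies of GENCODE release M21 (mouse assembly mm10) with 10 kb on each side. A promoter window reached 500 bp to either side of every annotated transcription start site (TSS).

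The tissue was midbrain of newborn mice (strain B6NCrl, age 0 days, both sexes pooled, recorded as healthy), with no treatment or genetic change in the labels and a single group of 2 biological replicates. The labels tie the 2 biosamples to the same donor record and do not say that they came from different animals, so the spread between them may be technical. Replicate 1 gave 228203 usable peaks and replicate 2 gave 122593, each peak 150 bp wide with a signal value from the authors in whole numbers. The signal was not scaled between the libraries (median 44 in replicate 1 and 18 in replicate 2), so each signal is also given as a rank, the percentage of peaks in the same library at or below it. Read depth is unknown. Overlapping or touching peaks were merged into regions, and a region was called shared when it held at least 1 peak of each library. With 1 group and 5 chosen genes no test was made, and the counts are set beside the percentage of all protein-coding genes that met the same rule. In bulk tissue, a small number of serotonergic cells and less opening per cell cannot be told apart.

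The label of the tissue was checked at promoters of marker genes. All 6 general neuronal genes checked had a shared promoter region, as did 4 of 6 midbrain and isthmus genes, 3 of 6 forebrain genes and 0 of 7 genes of other organs. Among all protein-coding genes 61% had such a region, so the midbrain and forebrain counts lay near that share. Pax5 is among the 4, although its replicate 2 peak lay outside the promoter window and only the merged region reached it. Promoters of Hox genes, which mark hindbrain segments behind the midbrain, separated the libraries. Replicate 1 had a peak at 5 of 6 (Hoxa2, Hoxb2, Hoxb3, Hoxd3 and Hoxb4, signals of 50 to 96), against 68.9% of all genes. Replicate 2 had a peak at 0 of 6, against 62.6%. In the wider domains replicate 2 did have peaks: 4 each at Hoxb3 and Hoxd3, 3 at Hoxb2, 2 each at Hoxa3 and Hoxb4, and 0 at Hoxa2. Replicate 1 had 7 to 19 per domain, and shared regions lay in those of Hoxa3, Hoxd3 and Hoxb4. Raphe neurons belong in large part to the hindbrain, so these values stand beside every site below that was found in replicate 1 alone. Their part in those sites was not tested.

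Every member had at least 1 shared region in its domain, but the start sites of 3 of the 5 genes lacked one. The domains held 43 regions in all, of which 12 were shared, 26 were found in replicate 1 alone and 5 in replicate 2 alone. Having a shared region in the domain was common, at 78.7% of all protein-coding genes, and so was having a peak of replicate 1 (86.4%) or of replicate 2 (82.4%), which all 5 members also had. A shared region within 500 bp of a TSS was found for 2 of 5 members, Tph2 and Htr5b, against 61% of all genes. Replicate 1 alone had such a peak at 3 members (68.9% of all genes), Slc6a4 being the additional one, and replicate 2 at 2 (62.6%). Neither library had a promoter peak at Fev or Htr1a, which was so for 30.4% of all genes. Of the 12 shared regions 9 lay over 500 bp from every annotated TSS of any gene, and all 5 members had at least 1 such distal shared region (61.7% of all genes).

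**Figure D1:**
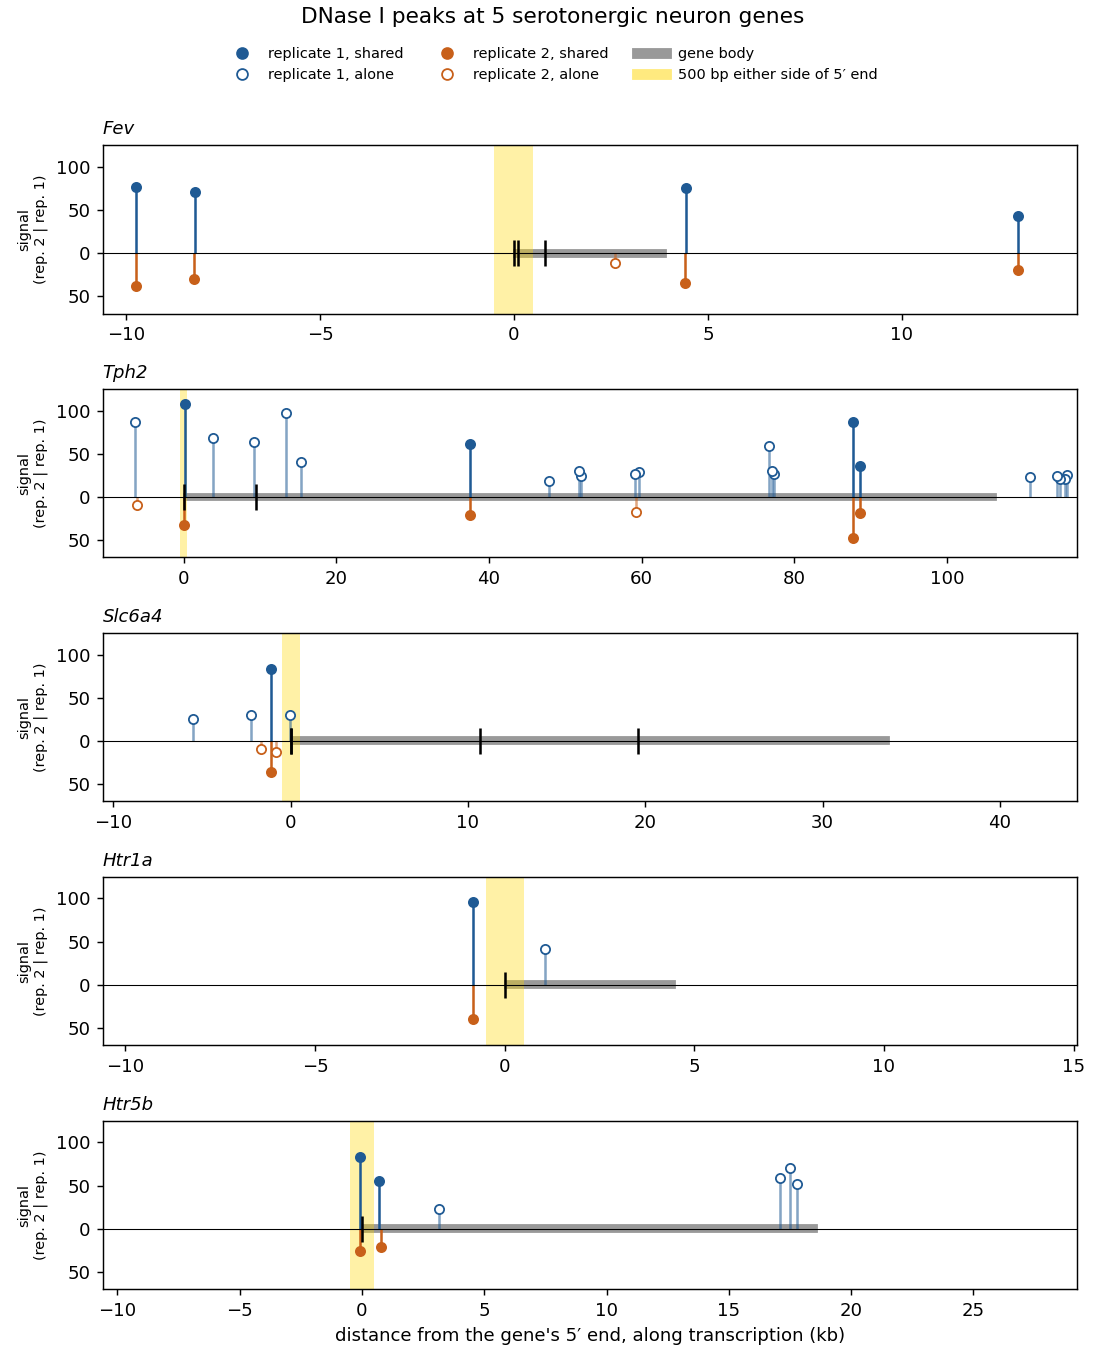
Peaks in the 5 domains, with the distance of each peak centre from the gene's 5′ end in kb on the horizontal axis and the deposited signal on the vertical axis, replicate 1 upward and replicate 2 downward. Filled points are shared peaks, open points are peaks of 1 library alone, grey bars are gene bodies, black ticks are annotated start sites and yellow marks 500 bp on either side of the 5′ end. Shared peaks stand at the 5′ ends of Tph2 and Htr5b, upstream of those of Slc6a4 and Htr1a, and only outside the gene body of Fev.

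The sequences of 5 shared regions and of 1 strong region of replicate 1 are shown because the results below turn on them. They were read from the RefSeq copy of mm10 on the strand of the named gene, 5′ to 3′, and lie outside every annotated exon. Capitals mark matches to the motifs that were searched, described further below.
Htr1a, upstream, chr13:105442716-105442865, plus strand: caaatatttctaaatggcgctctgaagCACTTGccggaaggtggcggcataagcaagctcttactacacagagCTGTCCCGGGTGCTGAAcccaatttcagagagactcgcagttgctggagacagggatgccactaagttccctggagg
Slc6a4, upstream, chr11:76997396-76997585, plus strand: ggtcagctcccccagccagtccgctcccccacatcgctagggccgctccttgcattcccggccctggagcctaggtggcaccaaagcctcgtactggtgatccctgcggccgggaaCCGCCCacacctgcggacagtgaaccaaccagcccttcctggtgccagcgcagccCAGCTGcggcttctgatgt
Tph2, distal intron, chr10:115097236-115097405, minus strand: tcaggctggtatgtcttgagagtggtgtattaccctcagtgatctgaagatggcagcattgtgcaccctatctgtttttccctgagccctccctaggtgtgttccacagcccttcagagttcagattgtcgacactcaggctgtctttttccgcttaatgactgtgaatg
Fev, downstream, chr1:74880916-74881085, minus strand: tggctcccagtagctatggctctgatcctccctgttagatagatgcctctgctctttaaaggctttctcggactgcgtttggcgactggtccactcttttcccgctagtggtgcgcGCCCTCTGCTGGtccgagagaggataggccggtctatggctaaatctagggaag
Fev, far upstream, chr1:74895076-74895245, minus strand: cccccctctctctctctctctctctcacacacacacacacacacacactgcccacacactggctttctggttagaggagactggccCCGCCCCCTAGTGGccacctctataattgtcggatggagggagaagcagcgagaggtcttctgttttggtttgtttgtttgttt
Tph2, proximal intron, replicate 1 only, chr10:115171536-115171685, minus strand: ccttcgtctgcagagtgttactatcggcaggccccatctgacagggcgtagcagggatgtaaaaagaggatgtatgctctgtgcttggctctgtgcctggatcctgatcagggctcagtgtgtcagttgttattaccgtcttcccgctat

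Fev, the regulator of the set, had open sites around the gene and none shared within it. The gene lies on chromosome 1 from 74881509 to 74885419, minus strand, and has 3 annotated start sites, all without a promoter peak. Its domain held 4 peaks of replicate 1 and 5 of replicate 2. The nearest shared region lay past the 3′ end, centred 4418 bp from the 5′ end, with signals of 75 in replicate 1 and 35 in replicate 2 and ranks of 81.8% and 81.9%. Both libraries thus placed it at the same rank, and their peak centres differed by 20 bp. Upstream, a region with signals of 71 and 30 was centred 8242 bp from the Fev start, and its near edge lay 433 bp from the start of Cryba2, the neighbouring gene for a crystallin, a structural protein of the eye lens. By that edge it counts as a promoter region of Cryba2. Another region, centred 9742 bp upstream of Fev and lying 1933 bp from the Cryba2 start, had signals of 77 and 38 and ranks of 83.0% and 84.3%. The weakest shared region (43 and 20) was centred 12998 bp downstream, inside the gene Gm16582. Within Fev itself the only peak belonged to replicate 2, in an intron 1723 bp from the nearest start site, with a signal of 11. Of replicate 2 peaks with a signal within 2 units of it, 40.8% had a partner in replicate 1.

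The Fev domain had more shared regions than most domains of like length, all of them outside the Fev gene body. It had 4, against a median of 1 (quartiles 0 and 3) among the 3964 protein-coding genes with a domain length within 10% of its own, 76.2% of which had fewer. All 4 replicate 1 peaks of the domain were shared, which held for no other member. At 3 of the 4 sites a hotspot of replicate 1, the wider interval deposited beside the peaks, was in the strongest class (a −log10 q value of 100). In replicate 2 this held for the sites centred 4418 bp downstream and 9742 bp upstream of the 5′ end, and the hotspot near Cryba2 had a value of 4.54.

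Tph2, the serotonin synthesis gene, had the strongest start-site signal of the 5 members and by far the most peaks of replicate 1. It spans chromosome 10 from 115078641 to 115185022, minus strand. The region over its start had a signal of 108 in replicate 1 (rank 94.9%) and 32 in replicate 2 (rank 78.9%). It covered the 5′ untranslated region and the first codons, with peak centres 60 bp apart. One further peak, in replicate 1 alone (signal 64), lay 218 bp from the start of a short processed transcript inside the gene.

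Distal sites of Tph2 that both libraries shared were all intronic and lay deep in the gene. The strongest, centred 87702 bp from the 5′ end, had signals of 87 and 47 (ranks of 88.2% and 90.1%), and its replicate 2 signal was higher than that over the start site. A second site, centred 88562 bp from the 5′ end, had 36 and 18, and a site centred 37512 bp in had 61 and 21. Hotspots of the strongest class covered the 87702 bp site in both libraries, with widths of 346 bp and 429 bp.

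The 2 libraries differed most at Tph2, where replicate 1 had 22 peaks and replicate 2 had 6. Of the replicate 1 peaks 18 had no partner, and the 4 strongest of these all lay within 13412 bp of the 5′ end. They were centred 13412 bp into the gene (signal 97, rank 91.9%), 6368 bp upstream of it (signal 87, rank 88.2%), 3812 bp in (68) and 9172 bp in (64). For the peak of 97, 86.4% of the 3717 replicate 1 peaks of like signal (within 2 units) had a replicate 2 partner, so a peak of this strength without one was uncommon. For the peak of 87 that share was 78.0%, for 68 it was 55.4% and for 64 it was 49.4%. The upstream site was close to being shared: a weak replicate 2 peak (signal 9) lay 111 bp from it, and the hotspots of the libraries overlapped there. At the other 3, the nearest replicate 2 peak was 3591 bp to 13191 bp away. The hotspots of replicate 1 at all 4 sites were in the strongest class, and the widest, 694 bp, lay over the 13412 bp site. The other 14 unpartnered peaks of replicate 1 had signals of 19 to 59.

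For its length Tph2 was rich in peaks of replicate 1 and not of replicate 2. Its 22 peaks of replicate 1 compare with a median of 15 (quartiles 10 and 21) among 660 genes of like domain length, and its 6 of replicate 2 with a median of 8 (5 and 12). Shared regions numbered 4 against a median of 5 (3 and 8).

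Slc6a4, the serotonin transporter gene, had 1 shared region, and it lay upstream of the promoter window. The gene lies on chromosome 11 from 76998603 to 77032340, plus strand. The shared region was centred 1112 bp upstream, its near edge 1018 bp from the start, with signals of 83 and 36 at ranks of 86.3% and 82.7%. Both libraries had a hotspot of the strongest class there, 365 bp wide in replicate 1 and 511 bp in replicate 2. At the start site itself replicate 1 had only a weak peak, with a signal of 30 at rank 21.1%, and replicate 2 had none. Of replicate 1 peaks of like signal only 9.07% had a partner in replicate 2. The remaining peaks were also weak and upstream: 25 and 30 in replicate 1, centred 5492 bp and 2252 bp before the start, and 9 and 13 in replicate 2, centred 1652 bp and 812 bp before it.

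No peak of either library lay inside the body of Slc6a4 beyond its start site. With 1 shared region in the domain it fell below the median of 3 (quartiles 2 and 5) of 1666 genes of like domain length, 11.1% of which had fewer.

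Htr1a, the autoreceptor gene, had a single shared region, upstream of its start. The gene has 1 annotated transcript on chromosome 13 from 105443639 to 105448122, plus strand. The region was centred 848 bp upstream, its edge 774 bp from the start, with signals of 96 in replicate 1 (rank 91.6%) and 40 in replicate 2 (rank 85.8%). The peaks of the 2 libraries covered exactly the same 150 bp, which was the case for no other shared region of the members. The strongest hotspot class was reached in both libraries (307 bp and 256 bp wide). The only other peak of the domain, 42 in replicate 1 alone, lay in the coding sequence 997 bp past the start, under a hotspot 838 bp wide with a −log10 q value of 4.96. In the order of the promoter rule, Htr1a was the nearest member outside the window of 500 bp and Slc6a4 the next, while the regions of Tph2 and Htr5b touched their start sites.

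Htr5b, the other receptor gene, had a shared region across its start site and another in its first coding exon. It lies on chromosome 1 from 121509842 to 121528465, minus strand. The first region had signals of 83 and 26 (ranks of 86.3% and 71.2%) and the second, centred 744 bp past the start, 55 and 21 (65.6% and 61.1%). In replicate 1 both hotspots were in the strongest class. In replicate 2 their −log10 q values were 6.0 and 4.36, so Htr5b was the only member without a hotspot of the strongest class in replicate 2. Near the 3′ end replicate 1 had a row of 3 peaks with signals of 52, 70 and 59, centred 17794 bp, 17514 bp and 17094 bp from the 5′ end. Replicate 2 had no peak within 16171 bp of any of them. The shares of like-signal replicate 1 peaks with a partner were 31.6%, 58.5% and 42.6%. The domain had 2 shared regions, against a median of 3 (quartiles 1 and 4) of 2361 genes of like length.

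The 12 shared regions were compared by rank between the 2 libraries. In replicate 1 the ranks ran from 35.4% to 94.9% and in replicate 2 from 52.4% to 90.1%. Both start sites of members ranked higher in replicate 1, at 94.9% against 78.9% for Tph2 and 86.3% against 71.2% for Htr5b. The regions of Fev, Slc6a4 and Htr1a differed less, while the weakest region of Tph2 differed more and in the other direction (35.4% and 52.4%). The start site of Tph2 had the highest signal of the members in replicate 1, whereas its intron held the highest in replicate 2.

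**Figure D2:**
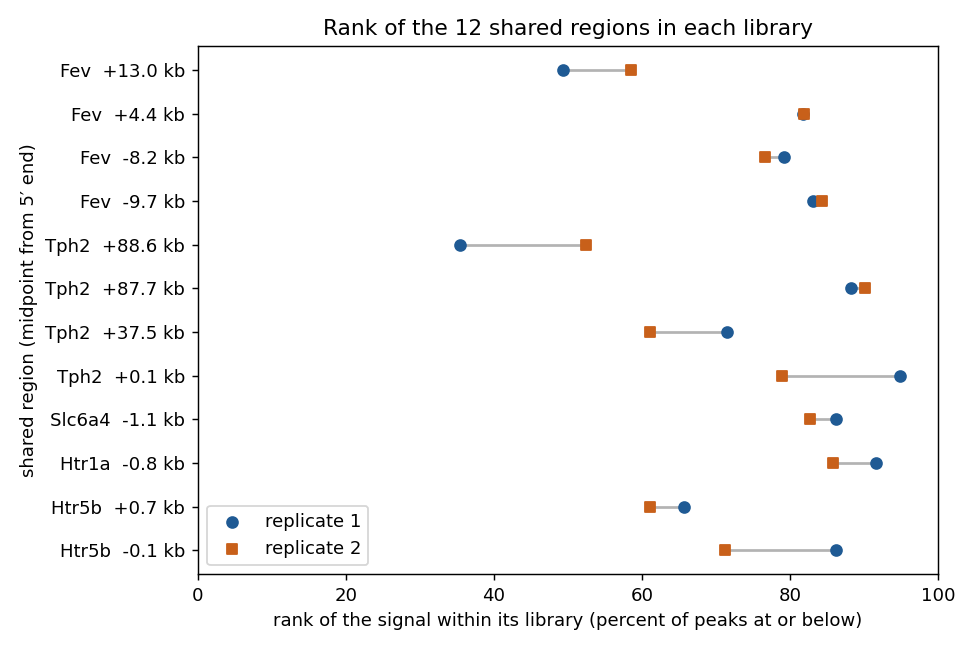
Rank of each of the 12 shared regions within its own library, as the percentage of that library's peaks with a signal at or below it, for replicate 1 (circles) and replicate 2 (squares). The distance of each region's midpoint from the gene's 5′ end is given beside the gene, and the site downstream of Fev (81.8% and 81.9%) has nearly the same rank in both libraries while the Tph2 start site (94.9% and 78.9%) does not.

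The share of peaks that were shared resembled that of the whole lists. In the 5 domains 12 of 38 replicate 1 peaks (31.6%) and 12 of 17 replicate 2 peaks (70.6%) had a partner, against 33.5% and 64.6% of all peaks. The members differed among themselves: 4 of 4 replicate 1 peaks were shared at Fev, 4 of 22 at Tph2, 1 of 4 at Slc6a4, 1 of 2 at Htr1a and 2 of 6 at Htr5b. Every replicate 2 peak of the members with a signal of 18 or more was shared, and each of the 5 unshared ones had 17 or less. That cut was read from these same few peaks. Over all replicate 2 peaks the share rose gradually. It was 51.8% at signals above 10 and up to 15, 70.5% up to 20 and 82.6% up to 25. In replicate 1 the unshared peaks of the members reached 97 and the shared ones began at 36. Among hotspots, 13 of 37 in replicate 1 and 13 of 16 in replicate 2 had a partner, and all 5 members had a shared hotspot in the domain (78.9% of all genes). Shared hotspots at the start were found for the same 2 members, Tph2 and Htr5b, against 62.1% of all genes.

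**Figure D3:**
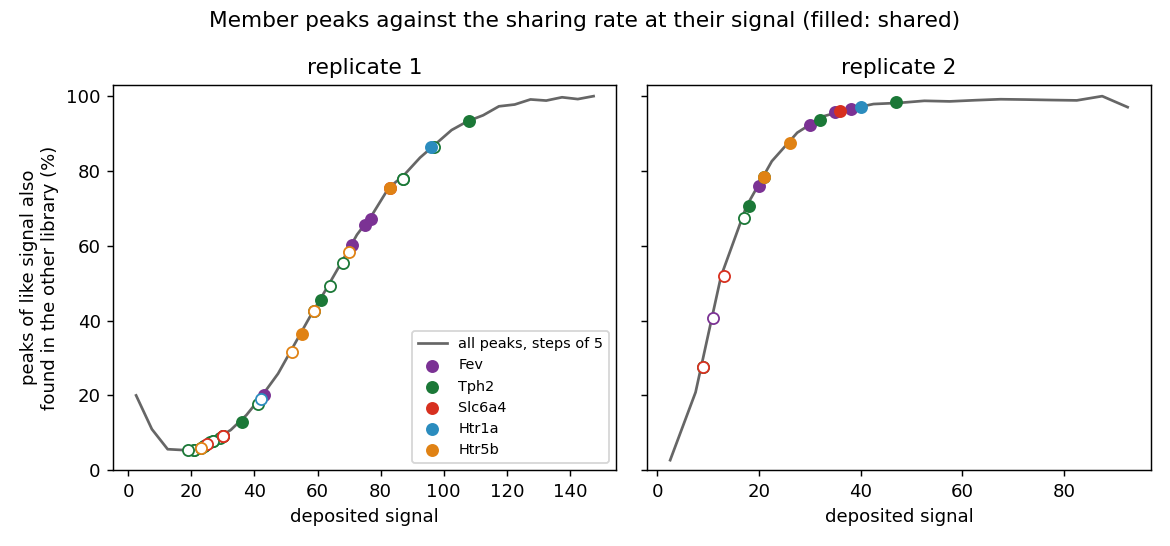
Percentage of peaks with a partner in the other library, by deposited signal, for replicate 1 (left) and replicate 2 (right). The grey line covers all peaks in steps of 5 signal units, and each point is a peak of a member placed at the share for its own signal, filled where the peak was shared. In replicate 1 an open Tph2 point sits at a signal of 97 where 86.4% of peaks were shared, and in replicate 2 all points from a signal of 18 upward are filled.

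Sequence was compared next, starting with the CpG content of the start sites. In the window of 500 bp on either side of the 5′ end, the ratio of observed to expected CpG was 0.388 for Tph2 and 0.415 for Htr5b, the 2 genes with an open start site. It was 0.423 for Htr1a, 0.606 for Fev and 0.758 for Slc6a4, the 3 without a shared promoter region, and the median of all genes was 0.552. The 2 open promoters had the lowest ratios of the 5, with 39.2% and 41.0% of all genes below them, but Htr1a was close by with 41.4%, and Slc6a4 had 73.6% below it.

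Consensus sequences of 14 motifs of factors that act in serotonergic or other neurons, or at promoters in general, were sought, on either strand, in the central 150 bp of each of the 12 shared regions. The same search was made in all 74833 shared regions of the genome. A match describes letters only and is not a binding site. The ETS site CCGGAAGT, the class of sequence that Fev recognises, was in 0 of the 12 (1.41% of all shared regions), and its core GGAAGT was in 1 (10.2%), the weak region downstream of Fev. The GATA sequence AGATAA was in 0 (4.40%), the homeodomain sequence TAATTA in 0 (3.11%), the forkhead sequence TGTTTAC in 0 (1.67%), the E-box CAGCTG in 1 (12.7%) and the Nkx2 sequence CAAGTG in 1 (8.10%). GGAAGT lies within CCGGAAGT, so every match of the longer ETS site is also one of the core. The GC box GGGCGG was in 4 (17.6%): the start sites of Tph2 and Htr5b, the upstream region of Slc6a4 and the far upstream region of Fev. The single arm TTGGCA of the nuclear factor I site was in 2 (11.8%), the Tph2 start site and the weak region downstream of Fev. A match was found in 0 regions for the palindromic site of that factor (0.0989%), the cAMP element TGACGTCA (0.927%), the NRF1 palindrome (0.453%) and a CTCF core pattern of 10 fixed letters (3.19%). The E-box in the printed Slc6a4 sequence lies outside the central 150 bp and is not in these counts.

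REST is a repressor that keeps neuronal genes silent in other cells through a long DNA element. The left part of this element, TTCAGCACC, was found in 1 of the 12 shared regions, the one upstream of Htr1a, and in 202 of all 74833 (0.270%). The match begins 842 bp before the start of Htr1a, reads on the minus strand and lies near the middle of the region. A longer REST pattern, in which GGACAG follows the left part after 2 free letters, was added once the sequence had been seen. The Htr1a region matched all 15 of its fixed letters and was among 31 of all shared regions that did (0.0414%). Because of that order, the match at Htr1a is a description only. In the complete domains of the 5 genes the left part occurred 7 times, of which 2 lay in a shared region and 5 in no peak of either library. The second match in a shared region was at Tph2, 8 bp past the start site in the 5′ untranslated region and at the edge of the open region. The search itself fixed the 9 letters of the left part in every match, so only the remaining letters could differ. Counting the left part, the 6 matches other than that of Htr1a carried 9 to 11 of the 15 letters. Both the Tph2 start-site match and a match upstream of Fev in no peak had 11. The 17 letters of each, 5′ to 3′ on the strand of the match with agreeing letters in capitals, were as follows.
Htr1a, upstream: TTCAGCACCcgGGACAG
Tph2, start site: TTCAGCACCagGGttct

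In the RefSeq promoter windows, 250 bases before to 50 after the start, 4 of the 5 members were matched by symbol (all but Htr5b). The left part of the REST element was in that of Tph2 and in 0.371% of 32851 windows. AGATAA was in those of Fev and Tph2 (11.2% of windows), TAATTA in that of Fev (5.29%), CAGCTG in those of Tph2 and Slc6a4 (16.3%), GGAAGT in that of Htr1a (23.8%) and GGGCGG in those of Fev, Slc6a4 and Htr1a (35.7%).

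None of the 12 regions matched the searched pattern of CTCF, an insulator protein, and looser patterns were then tried. A pattern of 8 fixed letters, chosen after the sequences were seen, matched 2 of the 12 regions (12.4% of all shared regions), and one of 7 fixed letters matched 5 (17.6%). Both matches of the first were at Fev, and the other pattern added the region beside Cryba2, the Tph2 start site and the Htr1a region. The letters at Fev, with those the pattern fixes in capitals, were as follows.
Fev, downstream: CCAgcAGagGGC
Fev, far upstream: CCActAGggGGC
Fev, beside Cryba2: CCgccAGgcGGC
Since these patterns were fitted to the regions, their counts are a description only.

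The wider serotonin pathway was given by 39 genes in 4 roles, of which the 5 members are part. A shared promoter region was found for 23 of 39 (59.0%), and for 21 of the 34 others, close to the 61% of all genes. Genes of synthesis and breakdown had 8 of 10. Highest by mean rank were Qdpr (145 and 72), which encodes an enzyme that regenerates the cofactor tetrahydrobiopterin, and Pts (129 and 64), which encodes an enzyme that makes it. Ddc, for the decarboxylase that completes serotonin synthesis, had peaks of 48 and 13 that did not overlap, and Maob, for a monoamine oxidase, 26 in replicate 1 only. Within this role Tph2 (108 and 32) stood below Qdpr and Pts in both libraries.

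Transporter genes had a shared promoter region in 1 of 4, against 61% of all genes. It was Slc29a4 (96 and 58), which encodes a plasma membrane monoamine transporter. Slc18a2, for the vesicular monoamine transporter, had peaks of 38 and 14 that did not overlap, and Slc22a3 had no peak at its start in either library. With Slc6a4, which had a promoter peak in replicate 1 only, 3 of the 4 transporter genes lacked a shared promoter region.

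Serotonin receptor genes had a shared promoter region in 8 of 14, against 61% of all genes. Among the non-members with one, Htr1b (65 and 40) and Htr4 (62 and 28) had the highest mean ranks. Htr5b (83 and 26) was above both in replicate 1 and below both in replicate 2. Htr1d (31) and Htr1f (58) had a promoter peak in replicate 1 alone, as did Htr2b and Htr2c. Htr1a and Htr3b were the 2 receptor genes with no promoter peak in either library.

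Transcription factor genes of serotonergic neurons had a shared promoter region in 6 of 11, against 61% of all genes. Insm1 (120 and 51), a zinc finger gene of newly formed neurons, and En2 (112 and 52), an engrailed gene of midbrain and anterior hindbrain identity, had the highest mean ranks. Foxa2 had no peak at its start and Gata2 had 45 and 14 in peaks that did not overlap. Fev and Lmx1b also lacked one in both libraries, and Gata3 had one in replicate 2 only.

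**Figure D4:**
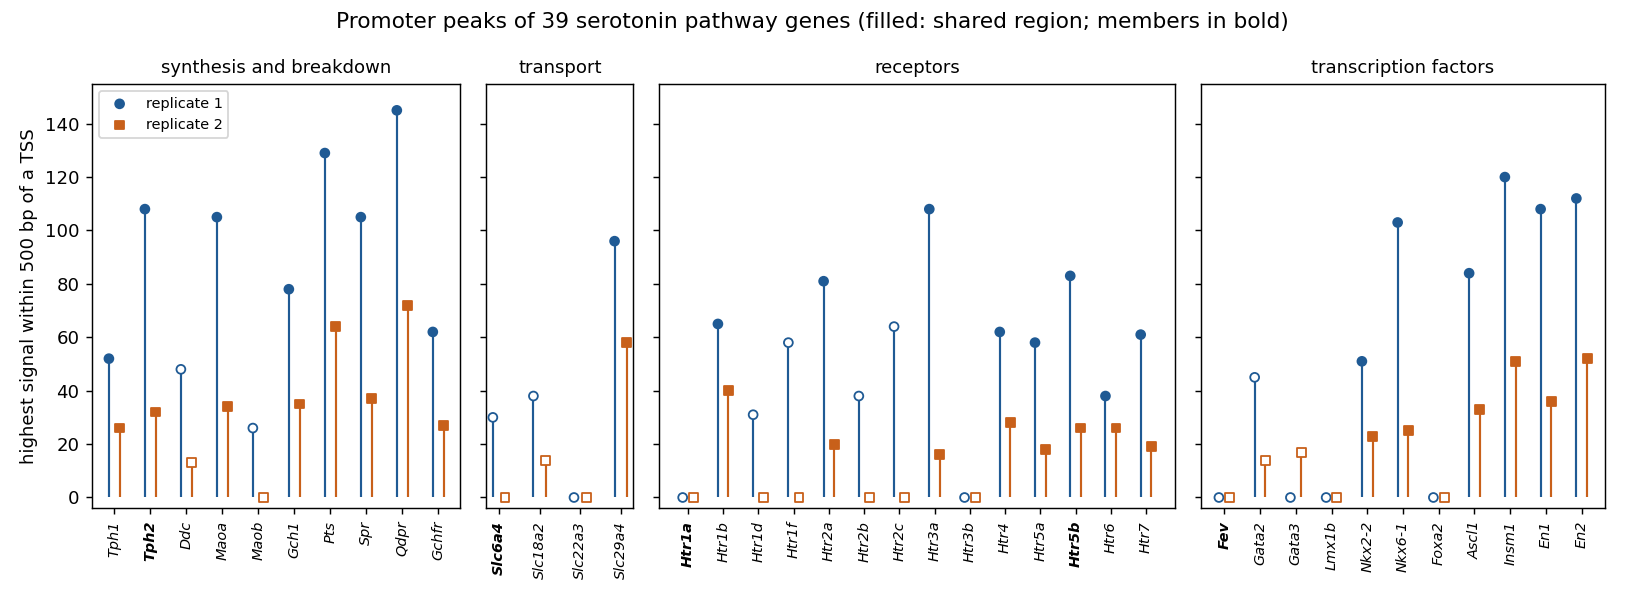
Highest deposited signal within 500 bp of a start site for 39 serotonin pathway genes in 4 roles, replicate 1 as circles and replicate 2 as squares, with 0 for no peak. Filled symbols mark genes with a shared promoter region, and members are in bold. Of the members, Tph2 and Htr5b are filled, Slc6a4 has an open point at 30 in replicate 1, and Fev and Htr1a are at 0.

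Other transmitter systems of the brainstem are given for scale, with no test of a difference. A shared promoter region was found for 3 of 7 dopamine genes and 2 of 9 motor and noradrenergic genes, against 61% of all genes. The dopamine list has Slc18a2 and Ddc in common with the serotonin pathway, and neither had a shared promoter region. The serotonergic members had 2 of 5.

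The genes most like Tph2 and Htr5b in pattern were found from 4 percentile ranks per gene, the promoter signal and the peaks per 100 kb of the domain in each library. Over these 2 libraries the nearest to Tph2 were Gpm6b, Grb10 and Igf2bp3, with summed rank differences of 9.49, 10.1 and 10.4 percentile points. The nearest to Htr5b were Kif26b, Fam189a1 and Lhfpl2, at 3.99, 6.17 and 8.49.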

How the data were processed

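For each library of newborn midbrain the authors deposited a list of peaks with a signal per peak and a list of hotspots with the −log10 of a q value and a display score, which was not used. The notes that the authors deposited with each library name mm10 and the alignments of a single replicate, listed apart from unfiltered ones, as the source of both lists. For the aligner, the peak caller and the definition of the signal, the sources used here give nothing. Intervals outside chromosomes 1 to 19, X and Y (215 and 221 peaks) and repeated positions (22 and 24) were set aside. Overlapping or touching peaks were merged into 260777 regions, and overlap meant at least 1 bp. Distances run from the edge of a region unless its centre is named. Region placement used GENCODE M21, and 0 regions ran past a chromosome end. Python 3.11.15, numpy 2.4.6 and pandas 2.3.3 were used, and the counting steps were tested on simulated data. No statistical test was made. The members, lists and rules were chosen with earlier results of these data known. Named non-members were, per role, the 2 with the highest mean rank among genes with a shared promoter region and the first 2 by symbol without one; other genes are named by their state. Alternatives changed the overlap, peak strength, list length, windows, flanks and libraries.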

Additional observations from a re-analysis of the deposited data

How the results depend on the processing

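The members with a shared promoter region were Tph2 and Htr5b with reciprocal overlap of 50%, the stronger 50% of peaks, a shortened replicate 1 list, hotspots, the 100 bp window and the 5′ end alone. In the 1000 bp window Htr1a joined them, for 3 members. With a single library, where any promoter peak counted, 3 members had a peak in replicate 1, Slc6a4 joining, and 2 in replicate 2. Nothing can be shared in a single library, so the other counts there are of all its regions. Beside the 12 shared regions, replicate 1 alone had 38 and replicate 2 alone 17. With both libraries the 12 became 6 with no flank and 26 with 50 kb on each side. The 9 distal ones became 4 and 17 in the same order, and a single library held 33 (replicate 1) or 14 (replicate 2). Members with a shared hotspot fell from 5 to 2 with no flank, and were 4 in the strongest class. The 10 motif matches became 17 in windows of 300 bp. With no flank Fev, Slc6a4 and Htr1a had 0 shared regions. The pathway count of 23 lay between 18 and 25 in the alternatives that used both libraries. Any promoter peak was found for 32 pathway genes in replicate 1 alone and for 27 in replicate 2 alone. The deposited lists give no read depth, so absence of a peak is not absence of open chromatin. No paired analysis was possible because there is a single group.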

Other observations

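The factor genes of the serotonergic pathway differed from the rest of the pathway in which library held more peaks, a pattern noticed in the data and not tested. The domains of 6 of 11 factor genes held more peaks of replicate 2 than of replicate 1, against 13.4% of all protein-coding genes, although the replicate 2 list was the shorter one. Gata3, a zinc finger gene needed by serotonergic neurons, had 42 peaks of replicate 2 and 6 of replicate 1, Nkx2-2 had 21 and 12, Nkx6-1 had 18 and 4, Gata2 had 11 and 5 and En1 had 9 and 3. Fev, with 5 and 4, was the sixth. Among receptor genes 0 of 14 had more peaks of replicate 2, and among genes of synthesis and breakdown 1 of 10. Lmx1b, which had no promoter peak, had 27 peaks of replicate 1 and 11 of replicate 2 in its domain, and 9 shared regions.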
